A study of Mus musculus with 6 samples.

Results

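The homeobox genes of the 4 Hox clusters were followed across the 6 libraries of the series. They were chosen by name: every listed member of the Hoxa, Hoxb, Hoxc and Hoxd clusters, 38 genes in all, with 10 in Hoxa, 10 in Hoxb, 9 in Hoxc and 9 in Hoxd. Of these, 37 had a row among the 37310 gene identifiers of the files and 36 were among the 15471 genes with enough counts to test. Hoxd4 was matched to no identifier and is not analysed here. Hoxb13 was too low to test.

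The libraries are polyadenylated RNA from mouse tailbuds, the growing posterior tip of the embryo. At embryonic day 9.5, 3 libraries were made from WT/WT and 3 from Sd/Sd embryos, all on the outbred CD-1 background. Sd is the Danforth's short tail mutation, an insertion upstream of the pancreatic transcription factor gene Ptf1a that truncates the tail and spine, and Sd/Sd embryos carry it on both alleles. The cut was made anterior to the last somite, and tailbuds of up to 2 embryos were pooled where material was short. The sources used here do not say which libraries were pooled or whether the embryos of a group came from separate litters. The p-values therefore cover only the variation among these libraries, which may be technical.

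Hox genes encode transcription factors that give each level of the body axis its identity. Within a cluster they are numbered from the 3' end, and the order of the genes follows the order in which they are activated in time and along the axis: low-numbered genes come on first and act in the hindbrain and neck, high-numbered genes come on last and act in the lumbar, sacral and tail region. Genes of the same number in different clusters are paralogs and often act together. In the tailbud, axial progenitors switch on later Hox genes as the axis extends, under Cdx factors, Wnt, FGF and Gdf11 signals. The last group, paralog 13, is linked to slowing and ending axis growth.

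Depth was high in every library, from 41788978 to 62296689 counts. Ptf1a, next to the insertion, stood at 0.0237 to 0.0948 CPM in WT and at 13.8 to 20.6 in Sd/Sd, where CPM is a count rescaled by the library's effective total, so each library matched its genotype label. Genes of the forebrain and midbrain that a tailbud should lack summed to 1.92 to 3.67 CPM over 6 genes, and the 12 genes of tailbud progenitors summed to 797 to 1838 CPM. All identifiers on the X chromosome are listed at 0, among them Cdx4. A lower level in these bulk samples can mean fewer cells of a type or less RNA per cell, and the files cannot tell these apart.

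Promoter windows of 4 members on which the results turn are given here, each covering the 250 bases before a RefSeq start site (GRCm38.p6, plus strand). Hoxd11 is shown at both of its RefSeq starts because its difference between genotypes was nearly equal in all 3 same-numbered pairs of libraries. Hoxd12, its neighbour, is shown because it varied most within a genotype among the Hoxd genes. Hoxd1 and Hoxb8 are shown because they took opposite orders between Sd/Sd libraries. Capitals mark matches to TTTATG, a core recognised by Cdx factors, or to TGATTNAT, a core recognised by Hox-Pbx dimers, on either strand.
Hoxd11, first start: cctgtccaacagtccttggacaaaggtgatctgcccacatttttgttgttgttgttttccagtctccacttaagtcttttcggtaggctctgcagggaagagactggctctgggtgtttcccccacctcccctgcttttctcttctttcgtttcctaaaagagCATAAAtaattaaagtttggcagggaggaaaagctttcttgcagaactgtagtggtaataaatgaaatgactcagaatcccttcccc
Hoxd11, second start: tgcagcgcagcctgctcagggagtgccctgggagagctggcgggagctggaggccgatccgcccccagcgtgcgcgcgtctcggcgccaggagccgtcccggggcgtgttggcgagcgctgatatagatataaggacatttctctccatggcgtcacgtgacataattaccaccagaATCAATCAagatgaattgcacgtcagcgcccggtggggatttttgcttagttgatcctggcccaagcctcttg
Hoxd12: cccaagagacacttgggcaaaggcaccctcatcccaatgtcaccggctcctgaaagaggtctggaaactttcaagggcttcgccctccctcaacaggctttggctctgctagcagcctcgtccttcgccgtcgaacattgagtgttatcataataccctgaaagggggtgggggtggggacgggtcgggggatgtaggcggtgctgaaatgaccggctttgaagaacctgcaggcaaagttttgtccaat
Hoxd1: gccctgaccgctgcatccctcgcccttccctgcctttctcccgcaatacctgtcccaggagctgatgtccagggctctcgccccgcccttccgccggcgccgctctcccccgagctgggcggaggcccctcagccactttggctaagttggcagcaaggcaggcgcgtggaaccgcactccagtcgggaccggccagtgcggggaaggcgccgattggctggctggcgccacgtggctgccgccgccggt
Hoxb8: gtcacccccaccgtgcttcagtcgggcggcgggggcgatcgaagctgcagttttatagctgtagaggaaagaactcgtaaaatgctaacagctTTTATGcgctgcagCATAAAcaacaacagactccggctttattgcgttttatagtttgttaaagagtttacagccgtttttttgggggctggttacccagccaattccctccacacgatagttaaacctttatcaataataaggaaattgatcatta
These windows lie at chr2:74679308-74679557 and chr2:74682073-74682322 for Hoxd11, chr2:74674763-74675012 for Hoxd12, chr2:74762730-74762979 for Hoxd1 and chr11:96281655-96281904 for Hoxb8. Hoxb8 held TTTATG 2 times, once on each strand, 151 and 137 bases before its start. Hoxd11 held it once before its first start and TGATTNAT once before its second. TTTATG was found in 10.8% of all 32851 promoter windows and in 5 of the 24 windows available for 22 Hox genes: those of Hoxa7, Hoxb8, Hoxd3, Hoxd4 and Hoxd11. TGATTNAT was found in 2.82% of all windows and in those of Hoxa2 and Hoxd11. The printed windows ranged in base composition from 44.4% G and C for Hoxb8 to 71.6% for Hoxd1. A match of letters is a description and does not show binding.

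Nearly every Hox gene was transcribed in WT tailbuds. Of the 37 genes with a row, 36 reached 1 CPM on average in WT and 31 reached 10 CPM. Hoxc12 reached 1 CPM through WT replicate 1 alone, at 2.50, 0.492 and 0.0711 CPM in WT replicates 1 to 3. Hoxb13, which acts late at the tip of the tail and later in the prostate, had 3 counts over the 3 WT libraries and 4 over the 3 Sd/Sd libraries. Together the members summed to 1902, 1957 and 2195 CPM in WT replicates 1 to 3 and to 2122, 1706 and 2028 in Sd/Sd replicates 1 to 3. The genotypes overlapped in this sum, 2018 ± 156 CPM in WT and 1952 ± 218 in Sd/Sd (SD, n = 3 each).

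Per kilobase of annotated exon, Hoxc10, a gene of the lumbar level, had the highest level of the family. Its WT level was 107 ± 7.86 CPM per kb (SD, n = 3), and every WT library lay above every WT value of the next gene, Hoxb9, at 61.9 ± 14.8 CPM per kb. Hoxa6 followed at 56.5 ± 1.03 and was the most even member between WT libraries. All WT values of Hoxa6 lay within the WT range of Hoxb9, so this pair cannot be put in order. Hoxc6, of the forelimb and thoracic level, stood below Hoxa6 at 41.6 ± 6.54 CPM per kb without overlap. From Hoxc6 down the order was blurred too. Of 36 pairs of neighbours in the whole ranking, 33 overlapped in WT. Hoxb1, Hoxa10, Hoxa7 and Hoxd10, at 35.5, 34.7, 33.4 and 31.6 CPM per kb, cannot be put in order. At the low end stood Hoxb8 at 3.59 ± 0.539, Hoxd12 at 3.38 ± 3.19, Hoxc12 at 0.991 ± 1.26, Hoxc13 at 0.558 ± 0.257 and Hoxb13 at 0.0100 ± 0.0108 CPM per kb. The only other neighbours without overlap were Hoxc13 and Hoxb13.

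Level did not follow paralog number in a simple way. The 9 measured genes of paralogs 11 to 13 held 224 ± 53.0 CPM in WT out of the 2018 CPM of all members, while the 4 genes of paralog 9 held 411 ± 74.6 CPM (SD, n = 3). These sums do not account for gene length. Summed per kb of exon, the WT means were 84.9 for paralogs 11 to 13 and 136 for paralog 9. Hoxb1, the most 3' Hoxb gene and a gene of the primitive streak and the fourth rhombomere, ranked 5 per kb, and Hoxd13, the most 5' Hoxd gene and a gene of digits and genitalia, ranked 18. Sd/Sd tailbuds kept almost the same ranking: 1 gene moved by more than 3 places, Hoxa11, from rank 10 to 14. Some levels depend on how overlapping transcripts were counted, since the sources used here do not state the strand setting. In GENCODE M21, 52.9% of the exon length of Hoxb3 and 27.3% of that of Hoxb2 lie opposite Hoxb3os, 35.0% of Hoxa11 opposite Hoxa11os and 20.4% of Hoxa7 opposite Hoxaas3. With the longest transcript as the length, Hoxc10 stayed first and Hoxc6 took the second rank at 63.4 CPM per kb.

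**Figure D1:**
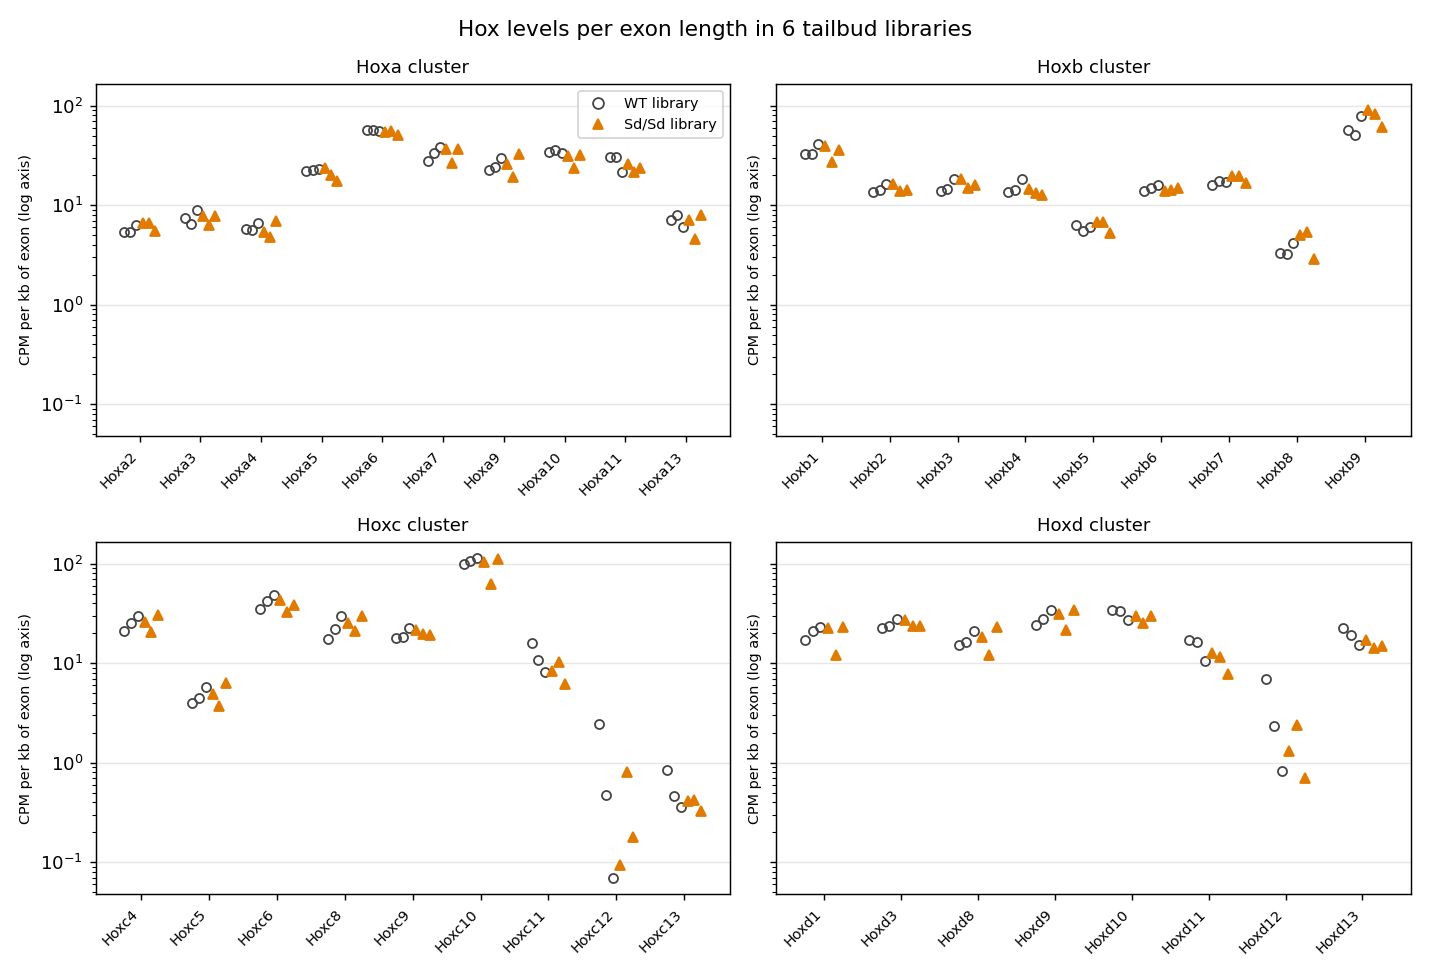
Levels of the 36 tested Hox genes in CPM per kb of exon (log axis), 1 panel per cluster with genes in paralog order. Open circles are the 3 WT libraries and triangles the 3 Sd/Sd libraries, in replicate order; Hoxc10 is highest, and Hoxc12 and Hoxd12 spread most between libraries of 1 genotype.

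The design sets mutant against wild-type tailbuds, and here the question was which Hox transcripts differ between them. No Hox gene passed the test: by edgeR's quasi-likelihood fit, 0 of 36 had a Benjamini-Hochberg adjusted p below 0.05, where 0.0582% of all genes did. At an unadjusted p under 0.05 there was 1 Hox gene, Hoxa10, against 2.90% of all genes. DESeq2 called 0 Hox genes (0.220% of all genes) with 4 at an unadjusted p under 0.05 (2.78% of all genes). Limma-voom called 0 (0.0194%) with 1 at that level (3.21%). Of the 36 log2 fold changes (Sd/Sd over WT) 21 were negative, 50.1% of all genes being so, and their median was -0.06. The 95% interval of the log2 fold change lay within a 2-fold change in either direction for 31 of 36 members, against 77.6% of all genes, and within a 1.5-fold change for 24.

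By cluster, the median log2 fold change was -0.07 for 10 Hoxa genes, 0.07 for 9 Hoxb genes, -0.13 for 9 Hoxc genes and -0.12 for 8 Hoxd genes. The Hoxd cluster shares chromosome 2 with Ptf1a, and its members as a sum stood at 426 ± 2.61 CPM in WT and 390 ± 46.1 in Sd/Sd (SD, n = 3 each). The Hoxd sums in Sd/Sd were 427, 338 and 404 CPM, so that replicate 1 overlapped WT and replicate 2 was lowest. The ratio of mean sums, Sd/Sd over WT, was 0.914 for Hoxd, 0.939 for Hoxa, 0.937 for Hoxc and 1.08 for Hoxb. The part of the shared chromosome was not tested. By paralog number, the medians were -0.02 for 10 genes of paralogs 1 to 4, 0.02 for 11 genes of paralogs 5 to 8 and 0.03 for 4 genes of paralog 9. For the 11 tested genes of paralogs 10 to 13 it was -0.31, and all 11 values were negative, from -1.42 to -0.10. The division at paralog 10 was drawn with these values in view, and genes of a cluster share enhancers and libraries, so the 11 values are not independent. That median was -0.14 without WT replicate 1 and -0.45 without WT replicate 3. Some marker lists of other tissues, those of hindgut, notochord, endothelium and blood, also had values all below 0 in Sd/Sd. The 11 hindgut genes had a median log2 fold change of -0.55, with 8 at an unadjusted p under 0.05 and Shh and Ihh passing the edgeR test as lower. The 7 notochord genes, which share Shh and Foxa2 with that list, had a median of -0.58, with 4 at an unadjusted p under 0.05. The 7 endothelial genes had a median of -0.20 and the 5 tested blood genes -0.22. Other lists were mixed, with 5 of 14 tested somite genes below 0 (median 0.06) and 6 of 12 progenitor genes (0.004). Likewise 4 of 9 tested neural tube genes (0.05) and 5 of 9 lateral plate and hindlimb genes (-0.03) were below 0. The part of these tissues in the lower values of paralogs 10 to 13 was not tested.

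**Figure D2:**
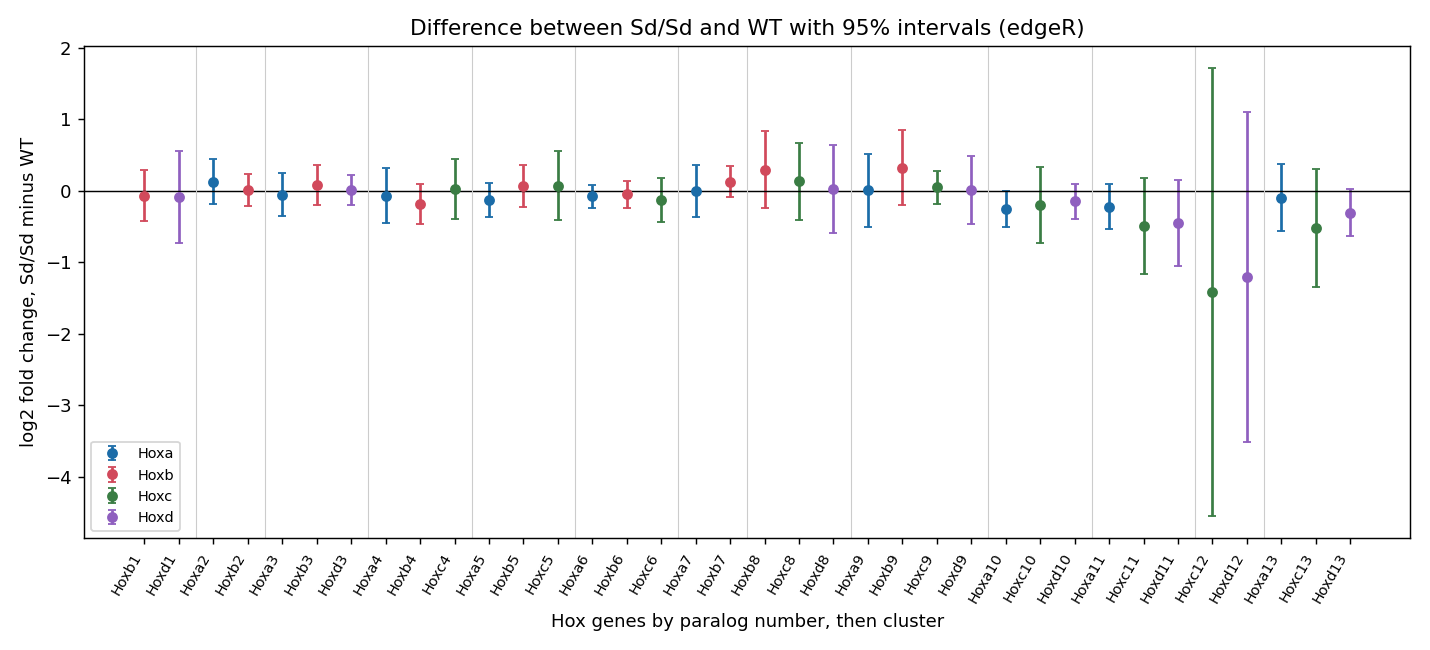
Log2 fold change of Sd/Sd over WT from edgeR for 36 Hox genes, ordered by paralog number and coloured by cluster; bars are 95% intervals. All 11 genes of paralogs 10 to 13 lie below 0, and all of their intervals except that of Hoxa10 include 0.

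Genes of paralogs 1 to 4, which pattern the hindbrain, pharyngeal arches and neck, had intervals within a 2-fold change for 10 of 10. Hoxb1 measured 75.9, 75.9 and 95.6 CPM in WT replicates 1 to 3 and 90.8, 62.3 and 83.0 in Sd/Sd replicates 1 to 3. WT replicate 3 was the highest and Sd replicate 2 the lowest of the 6, and the genotypes overlapped. Hoxa2, the selector gene of the second pharyngeal arch, measured 9.58, 9.52 and 11.2 CPM in WT and 11.8, 11.6 and 9.73 in Sd/Sd (log2 fold change 0.13, 95% interval -0.19 to 0.44). Hoxa3, needed for thymus and parathyroid, had a log2 fold change of -0.06 (-0.36 to 0.24). Hoxb4, known from blood stem cells, had the lowest of these, -0.19 (-0.47 to 0.09), at 39.4 ± 6.89 CPM in WT and 34.6 ± 2.57 in Sd/Sd (SD, n = 3 each). Without WT replicate 3 the log2 fold change of Hoxb4 was -0.04. Hoxd3, which helps shape the first vertebra, measured 95.5, 99.0 and 115 CPM in WT and 114, 99.0 and 98.5 in Sd/Sd. The remaining members Hoxa4, Hoxb2, Hoxb3, Hoxc4 and Hoxd1 ranged from -0.09 to 0.08, with intervals inside a 2-fold change.

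Genes of paralogs 5 to 8, of the cervical and thoracic levels, ranged from -0.13 to 0.30. Hoxa6 was the steadiest, at 50.1, 49.6 and 48.4 CPM in WT and 47.6, 48.8 and 44.1 in Sd/Sd (log2 fold change -0.08, -0.24 to 0.09). The 2 genotypes overlapped by a single library, Sd replicate 2. Hoxa5, needed in lung and at the neck to thorax boundary, measured 41.9 ± 1.00 and 38.2 ± 5.51 CPM (SD, n = 3 each), a log2 fold change of -0.13 (-0.37 to 0.10). Hoxb8 was the highest of the group at 0.30 (-0.24 to 0.83), with 8.78, 8.50 and 11.1 CPM in WT and 13.1, 14.1 and 7.53 in Sd/Sd. For Hoxb8, Sd replicates 1 and 2 stood above every WT library and Sd replicate 3 below every one. The log2 fold change of Hoxb8 was 0.13 without Sd replicate 2 and 0.53 without Sd replicate 3. Hoxc8, of the thoracic level, measured 65.7 ± 18.0 and 72.0 ± 12.7 CPM, and Hoxc6 100.2 ± 15.8 and 91.7 ± 11.8 CPM.

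Paralog 9 held the member with the highest fold change, Hoxb9. It measured 146, 130 and 202 CPM in WT and 230, 210 and 155 in Sd/Sd, a log2 fold change of 0.32 (SE 0.21, 95% interval -0.20 to 0.84). As in its neighbour Hoxb8, Sd replicates 1 and 2 were above all WT libraries and Sd replicate 3 was not. The log2 fold change of Hoxb9 was 0.19 without WT replicate 2, 0.20 without Sd replicate 1 and 0.53 without WT replicate 3. Hoxa9, known as a driver of leukaemia and of blood progenitors, measured 143 ± 21.7 and 143 ± 37.4 CPM (SD, n = 3 each). Hoxc9, which sets the thoracic identity of motor neurons, measured 47.6 ± 5.85 and 49.1 ± 3.15 CPM, and Hoxd9 had a log2 fold change of 0.01 (-0.46 to 0.48).

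Among the 36 tested members, Hoxa10 was the only one whose genotypes did not overlap. This gene suppresses rib formation in the lumbar spine together with its paralogs. Hoxa10 (ENSMUSG00000000938.9, chromosome 6) measured 113, 117 and 110 CPM in WT and 103, 77.8 and 104 in Sd/Sd. Every Sd/Sd library stood below every WT library, with Sd replicate 2 the lowest. Over all genes, 4.42% were lower in Sd/Sd without overlap and 3.26% higher. The log2 fold change of Hoxa10 was -0.26 (SE 0.11, 95% interval -0.50 to -0.01, unadjusted p = 0.0429, adjusted p = 1.00, edgeR), and -0.13 without Sd replicate 2.

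The other members of paralog 10 overlapped. Hoxc10 measured 189, 204 and 219 CPM in WT and 197, 120 and 215 in Sd/Sd, so that Sd replicate 2 alone stood apart (log2 fold change -0.20, -0.73 to 0.33). Without that library the log2 fold change of Hoxc10 was 0.02, and without Sd replicate 3 it was -0.36. Hoxd10, which acts on lumbar motor neurons, measured 62.1, 60.6 and 49.1 CPM in WT and 54.6, 46.4 and 54.3 in Sd/Sd (-0.15, -0.39 to 0.10).

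Paralog 11 genes, which act in the sacral spine, kidney and lower limb segments, were lower on average in Sd/Sd with overlap. Hoxd11 (ENSMUSG00000042499.10, chromosome 2) measured 72.3, 68.1 and 44.8 CPM in WT replicates 1 to 3 and 53.3, 48.9 and 33.0 in Sd/Sd replicates 1 to 3. WT replicate 3 lay below Sd replicates 1 and 2, and the unblocked log2 fold change was -0.45 (SE 0.25, 95% interval -1.06 to 0.15), or -0.27 without Sd replicate 3. The unblocked unadjusted p of Hoxd11 was 0.114 (edgeR). Within the same replicate number, the ratio of Sd/Sd to WT was 0.738, 0.718 and 0.737. The labels do not say what a replicate number stands for, so these pairs may be arbitrary. With the replicate number entered as a block, the log2 fold change of Hoxd11 was -0.45 (SE 0.08; unadjusted p = 1.51e-04, adjusted p = 0.116, edgeR), the smallest p among the members. Hoxc11 measured 32.3, 21.9 and 16.6 CPM in WT and 16.8, 20.9 and 12.6 in Sd/Sd (log2 fold change -0.49, -1.17 to 0.18). Without WT replicate 1 the log2 fold change of Hoxc11 was -0.19, and without Sd replicate 3 it was -0.32. Hoxa11 measured 62.9 ± 11.6 and 53.9 ± 4.85 CPM (SD, n = 3 each; -0.22, -0.54 to 0.09), with a range of -0.37 to -0.14 when 1 library was left out.

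With the block, 0 Hox genes passed the adjusted threshold (0.0776% of all genes did) and 4 had an unadjusted p under 0.05 (edgeR), against 3.72% of all genes: Hoxa10, Hoxc11, Hoxd11 and Hoxd13. Hoxa10 had a blocked log2 fold change of -0.27 (unadjusted p = 0.0281), Hoxc11 -0.47 (0.0209) and Hoxd13 -0.29 (0.0159), all in edgeR. Sd/Sd was below WT in all 3 same-numbered pairs for 7 members, and 12.0% of all genes showed this. The 7 were Hoxa6, Hoxa10, Hoxb6, Hoxc11, Hoxc13, Hoxd11 and Hoxd13. No member was above WT in all 3 pairs, as 10.2% of all genes were. The block and these counts rest on replicate numbers whose meaning is not stated.

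The paralog 12 genes Hoxc12 and Hoxd12 had the widest intervals of the family. Hoxd12 (ENSMUSG00000001823.4, chromosome 2), a gene of digits and the caudal spine, measured 17.6, 5.98 and 2.11 CPM in WT and 3.32, 6.02 and 1.77 in Sd/Sd. WT replicate 1 stood far above the rest and WT replicate 3 lay among the Sd/Sd libraries. Its log2 fold change was -1.21 with a 95% interval of -3.51 to 1.10, and without WT replicate 1 it was -0.12. Hoxc12 (ENSMUSG00000050328.2, chromosome 15) had 132, 26 and 3 counts in WT and 4, 52 and 9 in Sd/Sd, that is 2.50, 0.492 and 0.0711 CPM against 0.0970, 0.830 and 0.184 CPM. Its log2 fold change of -1.42 had an interval of -4.54 to 1.71, and it was 0.41 without WT replicate 1 and -2.83 without Sd replicate 2.

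The paralog 13 genes were less scattered. Hoxd13 measured 56.5, 48.0 and 37.5 CPM in WT and 42.2, 35.5 and 37.2 in Sd/Sd (log2 fold change -0.31, -0.64 to 0.02, and -0.16 without WT replicate 1). Among its 6 values only WT replicates 1 and 2 stood above the highest Sd/Sd library. Hoxa13, a gene of the cloaca, hindgut and autopod, measured 17.5, 19.8 and 14.7 CPM in WT and 17.7, 11.4 and 19.6 in Sd/Sd (-0.10, -0.57 to 0.37). Hoxc13, a gene of hair and nails, measured 1.37 ± 0.634 and 0.958 ± 0.123 CPM (SD, n = 3 each; -0.52, -1.35 to 0.31), and its log2 fold change without WT replicate 1 was -0.08.

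The wild-type libraries themselves differed in their Hox profile. WT replicate 3 was the highest WT library for 10 of 10 genes of paralogs 1 to 4, 8 of 11 of paralogs 5 to 8 and 4 of 4 of paralog 9, where 33.4% of all genes were highest in it. For paralogs 11 to 13 it was the lowest WT library in 8 of 8, against 33.7% of all genes. Paralogs 11 to 13 were set apart, and these 2 libraries compared, with the values in view. WT replicate 1 stood above WT replicate 3 in those same 8 genes, in 2 of 3 genes of paralog 10 and in 2 of 25 genes of paralogs 1 to 9, Hoxa6 and Hoxb5, where 49.4% of all genes did. The median ratio of WT replicate 1 to WT replicate 3 was 0.810 for paralogs 1 to 4, 0.792 for paralogs 5 to 8, 0.737 for paralog 9 and 1.78 for paralogs 11 to 13, beside 0.998 over all genes.

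In the 3 clusters with posterior genes tested, the ratio passed from below 1 to above 1 between paralogs 9 and 11. In Hoxd the ratio of WT replicate 1 to 3 was 0.704 for Hoxd9, 1.26 for Hoxd10, 1.61 for Hoxd11, 8.37 for Hoxd12 and 1.51 for Hoxd13. In Hoxa it was 0.754 for Hoxa9, 1.03 for Hoxa10 and 1.41 for Hoxa11. In Hoxc it was 0.809 for Hoxc9, 0.863 for Hoxc10 and 1.95 for Hoxc11. The ratio of Hoxc12, 35.2, rested on 132 and 3 counts and had a 95% counting interval of 11.8 to 173, which covers counting error only. The spread of Hoxc12 within WT, highest over lowest, was larger than that of 99.7% of all tested genes and that of Hoxd12 larger than that of 99.1%. The median spread of the members was 1.35-fold within WT, beside 1.17-fold over all genes, and 1.36-fold beside 1.26-fold within Sd/Sd.

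**Figure D3:**
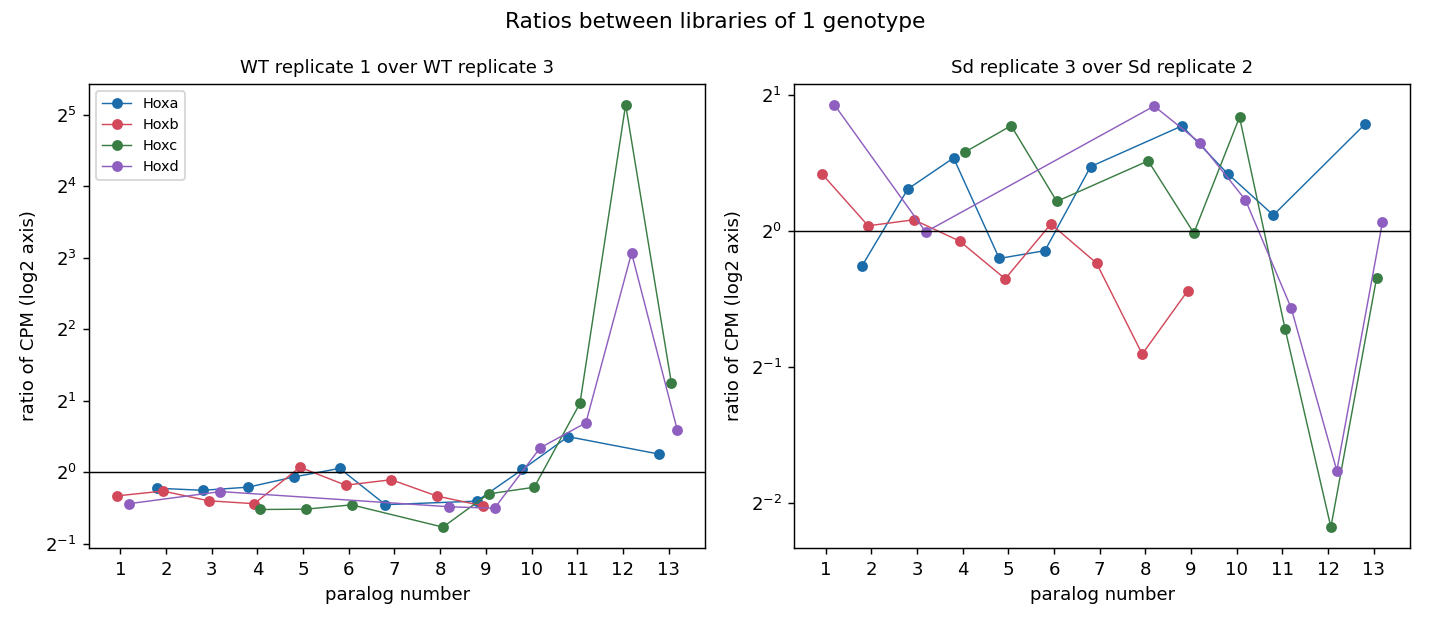
Ratio of CPM (log2 axis) between 2 libraries of 1 genotype for each Hox gene by paralog number, with 1 line per cluster. Left, WT replicate 1 over WT replicate 3 lies below 1 for nearly all genes up to paralog 9 and reaches 35.2 for Hoxc12; right, Sd replicate 3 over Sd replicate 2 is above 1 in 11 of 16 genes up to paralog 9 of Hoxa, Hoxc and Hoxd and in 4 of 9 of Hoxb.

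Noncoding genes at the 5' side of the clusters, Hotair and Hoxa11os, were also highest in WT replicate 1 and lowest in WT replicate 3. Hotair, a noncoding RNA between Hoxc11 and Hoxc12, measured 4.55, 1.78 and 0.995 CPM in WT and 1.07, 1.87 and 1.26 in Sd/Sd. Hoxa11os, opposite Hoxa11, measured 68.7, 49.2 and 32.8 CPM in WT and 37.9, 44.1 and 37.1 in Sd/Sd. Hoxaas3, which lies opposite Hoxa3 and Hoxa7, measured 67.8, 85.9 and 119 CPM in WT and 103, 53.6 and 133 in Sd/Sd, so that it was lowest, not highest, in WT replicate 1. Since the strand setting is not given, reads of Hoxa11os and Hoxaas3 cannot be separated from those of the genes they overlap. The list of 16 noncoding genes of the clusters had 9 tested members, of which 0 were higher and 0 lower in Sd/Sd (edgeR; 0 at an unadjusted p under 0.05; median log2 fold change -0.22). The members with the smallest p were Hotairm1 (-0.23), Hotair (-0.80), Hoxaas2 (-0.22) and Hoxa11os (-0.34). The microRNA genes Mir10a, Mir196a-1, Mir196a-2 and Mir196b, which sit inside the clusters, are listed at 0 in every library.

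**Figure D4:**
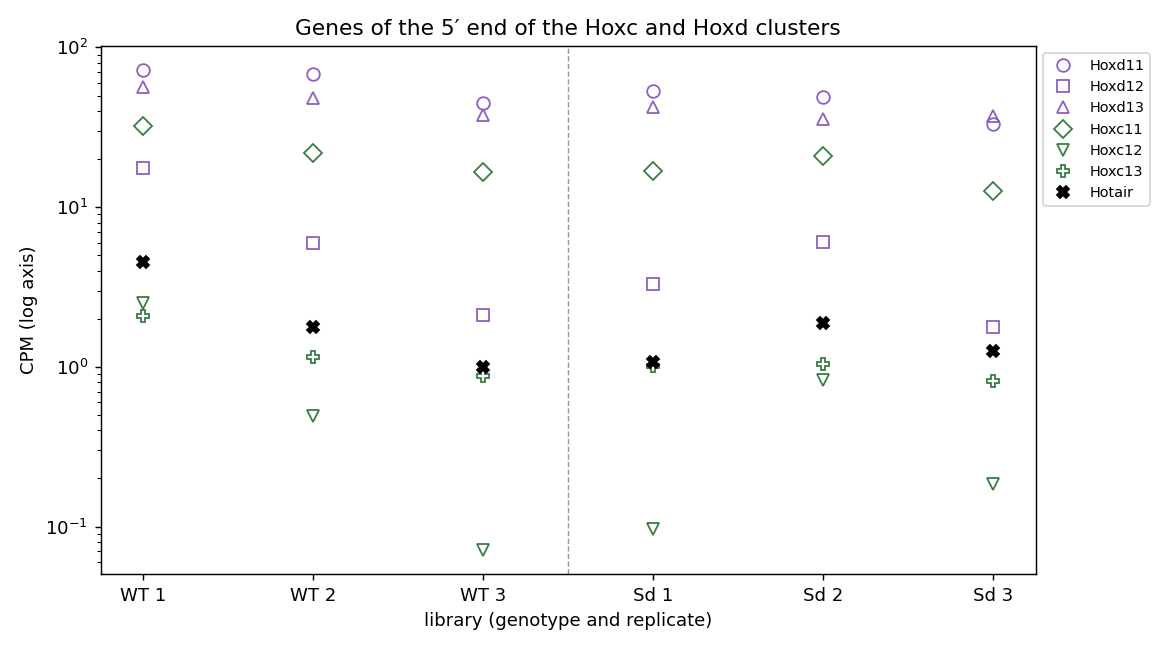
CPM (log axis) of 6 genes at the 5′ end of the Hoxc and Hoxd clusters and of Hotair in each of the 6 libraries. WT replicate 1 is the highest library for all 7 with Hoxc12 at 2.50 CPM there and at 0.0711 CPM in WT replicate 3.

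Marker genes of tissues also differed between the WT libraries, some lists in 1 direction and others not. The 12 genes of presomitic mesoderm and tailbud progenitors, such as T and Msgn1, summed to 1221, 1205 and 1549 CPM in WT replicates 1 to 3 and were highest in WT replicate 3 in 11 of 12. The 14 tested genes of somites, such as Meox1 and Pax3, summed to 564, 385 and 402 CPM and were highest in WT replicate 1 in 12 of 14. The 9 tested neural tube genes summed to 160, 120 and 124 CPM in the same libraries and the 7 endothelial genes to 543, 546 and 485 CPM. WT replicate 1 stood above WT replicate 3 in 1 of 12 progenitor genes, 13 of 14 somite genes, 8 of 9 neural tube genes and 7 of 7 endothelial genes. Ripply1 of the somite list and Sox3 of the neural list are at 0. Lateral plate and hindlimb genes summed to 599.8, 670.4 and 605 CPM, hindgut genes to 489, 620 and 608 CPM, notochord genes to 192, 198 and 233 CPM and blood genes to 4224, 8769 and 3596 CPM. In these lists WT replicate 1 was above WT replicate 3 in 5 of 9, 3 of 11, 4 of 7 and 4 of 5 genes, beside the 49.4% of all genes. The part of tissue makeup in the Hox differences between WT libraries was not tested.

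The Sd/Sd libraries also differed from each other in their Hox profile. Sd replicate 2 was the lowest Sd/Sd library for 20 of 36 members, where 32.8% of all genes were lowest in it, and Sd replicate 1 was lowest for 2 members, against 30.6% of all genes. Sd replicate 2 was the lowest of all 6 libraries for 17 members, against 19.0% of all genes. Among paralogs 1 to 9, Sd replicate 3 stood above Sd replicate 2 in 11 of 16 genes of Hoxa, Hoxc and Hoxd, with a median ratio of 1.41, and in 4 of 9 genes of Hoxb, with a median of 0.950. Over all genes the median ratio was 0.990 and 48.1% were above 1. Grouping Hoxa, Hoxc and Hoxd against Hoxb was done with these values in view, and the difference between the clusters was not tested.

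Among paralogs 1 to 9 the extremes of this ratio were Hoxd1 and Hoxb8, whose promoters are printed above. Hoxd1 (ENSMUSG00000042448.3, chromosome 2) measured 42.1, 22.7 and 43.1 CPM in Sd/Sd replicates 1 to 3, beside 32.0, 39.2 and 43.5 CPM in WT, and its ratio was 1.90. Sd replicate 2 was the lowest of the 6 libraries for this gene, and the other Sd/Sd values lay within the WT range. Hoxd8 measured 50.2, 33.4 and 63.1 CPM in Sd/Sd with a ratio of 1.89, and Hoxc10 had a ratio of 1.78. Hoxb8 (ENSMUSG00000056648.4, chromosome 11) had a ratio of 0.534 and Hoxb9 of 0.738. At the 5' end, Hoxd12 and Hoxc12 had ratios of 0.295 and 0.221, Sd replicate 2 being the highest Sd/Sd library for both.

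Tissue markers also differed between the Sd/Sd libraries. The progenitor list summed to 1352, 797 and 1838 CPM in Sd/Sd replicates 1 to 3, lowest in Sd replicate 2 for 11 of 12 genes and highest in Sd replicate 3 for 10. The somite list summed to 620, 716 and 108 CPM and was lowest in Sd replicate 3 for 14 of 14 genes. Meox1 measured 203, 265 and 12.8 CPM, and Pax3 39.2, 51.4 and 7.75 CPM. The neural tube list summed to 150, 193 and 67.8 CPM and the lateral plate and hindlimb list to 597, 577 and 711 CPM. The hindgut list, whose sum is mostly that of Krt8 and Cdx2, summed to 431, 419 and 615 CPM. Notochord genes summed to 169, 97.5 and 222 CPM, blood genes to 1722, 9975 and 2780 CPM and endothelial genes to 415, 413 and 569 CPM. The part of these markers in the Hox differences between Sd/Sd libraries was not tested.

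**Figure D5:**
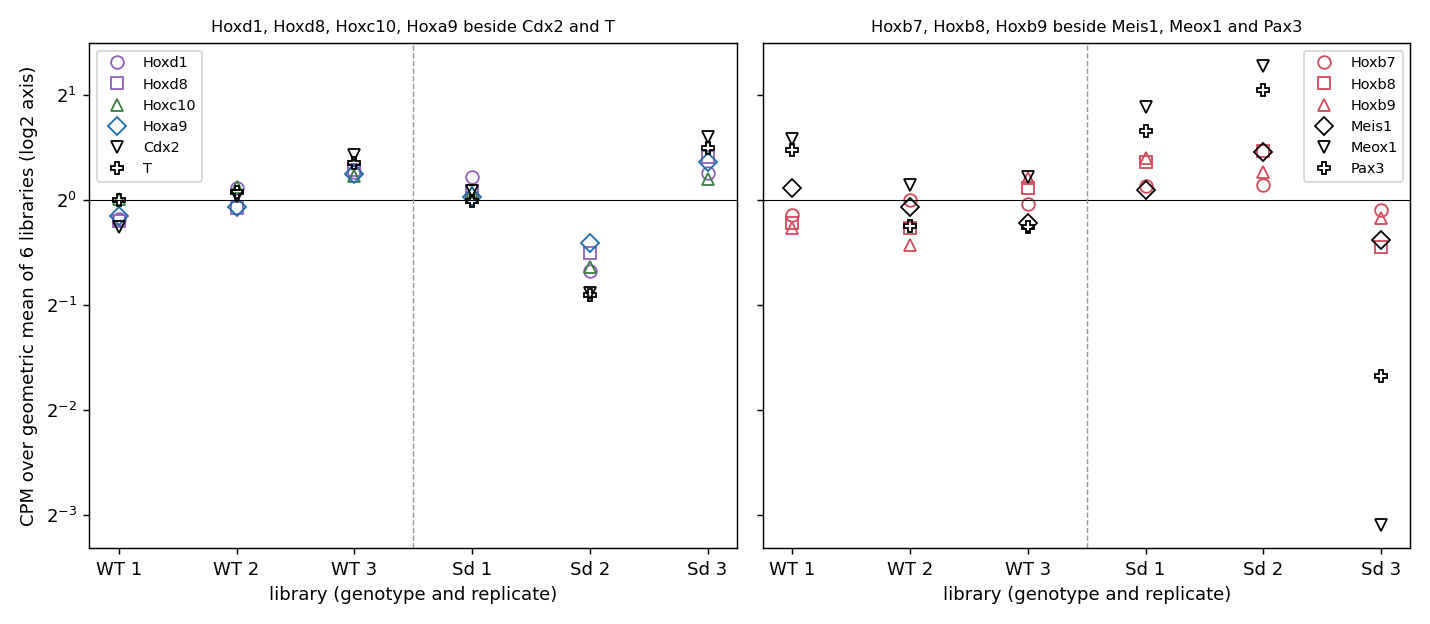
CPM of single genes divided by their geometric mean over the 6 libraries (log2 axis), by library. Left, Hoxd1, Hoxd8, Hoxc10 and Hoxa9 (coloured) are lowest in Sd replicate 2, as are Cdx2 and T (black). Right, Hoxb7, Hoxb8 and Hoxb9 (coloured) are lower in Sd replicate 3 than in Sd replicates 1 and 2, as are Meis1, Meox1 and Pax3 (black). Hoxa7, Hoxc4, Hoxc5 and Hoxd9, not shown, were among the 17 of 36 tested members lowest of all 6 libraries in Sd replicate 2. Other orders were also found among members not shown. Among Sd/Sd libraries, Hoxb1, Hoxb2 and Hoxb3 were lowest in replicate 2, and Hoxa2, Hoxa5, Hoxa6, Hoxc9 and Hoxd3 in replicate 3.

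Hox cofactors of the Pbx, Meis and Pknox families bind DNA beside Hox proteins. Of 9 tested cofactor genes 0 were higher and 0 lower in Sd/Sd (edgeR, adjusted p; 0 at an unadjusted p under 0.05), with a median log2 fold change of -0.01. The smallest p values belonged to Pbx4, Meis2, Pbx3 and Pknox2, with log2 fold changes of -0.47, 0.18, 0.22 and 0.15. The cofactors were lowest in Sd replicate 3 among the Sd/Sd libraries in 8 of 9 cases and stood above WT replicate 3 in WT replicate 1 in 9 of 9. Meis1 measured 92.4, 119 and 66.0 CPM in Sd/Sd replicates 1 to 3.

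Regulators that act upstream of the clusters gave 0 higher and 0 lower of 16 tested (edgeR; 0 at an unadjusted p under 0.05), with a median log2 fold change of 0.02. Cdx1, Nr6a1, Lin28b and Rarg had the smallest p values, at -0.32, 0.18, 0.08 and -0.10. Cdx2, a main activator of trunk Hox genes, measured 103, 127 and 167 CPM in WT and 132, 66.9 and 188 in Sd/Sd. Hoxa7, Hoxa9, Hoxc4, Hoxc5, Hoxc8, Hoxc10, Hoxd1, Hoxd8 and Hoxd9 had this library order in both genotypes. The other tested members did not, among them Hoxa5, Hoxa6, Hoxc6, Hoxc9 and Hoxb4 to Hoxb9. The part of Cdx2 in the library differences was not tested. Polycomb, trithorax and related chromatin regulators of the clusters gave 0 and 0 of 19 (median 0.05; 0 at an unadjusted p under 0.05), led by Asxl1 (0.13), Bmi1 (0.28), Ezh2 (0.08) and Kmt2d (0.11).

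Genes outside the ends of the clusters served as neighbours of another kind. Of 10 tested flanking genes 0 were higher and 0 lower (edgeR; 0 at an unadjusted p under 0.05), with a median log2 fold change of -0.03 and Cbx5, Smug1, Hibadh and Skap2 at 0.11, -0.12, 0.10 and 0.06. Evx1, the even-skipped homologue beside Hoxa13, measured 54.7, 61.5 and 75.0 CPM in WT and 62.2, 31.4 and 86.9 in Sd/Sd. It was lowest in Sd replicate 2, as Hoxa13 was, and highest in Sd replicate 3. Within WT the 2 genes differed: replicate 3 was the highest for Evx1 and the lowest for Hoxa13, at 14.7 CPM. Evx2, beside Hoxd13, was at 6.20 ± 0.431 and 5.77 ± 0.597 CPM (SD, n = 3 each). Among 5 tested Evx and ParaHox genes, relatives of the Hox family outside the clusters, 0 passed (median -0.08). Pdx1, the pancreatic ParaHox gene, had 1 of the list's unadjusted p values under 0.05, with 0.0600 ± 0.0304 CPM in WT and 0.483 ± 0.0473 in Sd/Sd (SD, n = 3 each; edgeR adjusted p = 0.316).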

How the data were processed

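Counts per gene were deposited by the authors, 1 file per library. The build was mm9, and STAR 2.5.2b, DESeq2, SAMtools, CASAVA and bcl2fastq 2.17.1.14 were used, in no stated role, per the submitters' processing notes. The sources used here do not name the read counter, its strand setting or the annotation; the library kit is stranded per the labels' protocols. Symbols and exon lengths came from GENCODE M21 (GRCm38), which named 32620 identifiers.

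Genes kept by filterByExpr (minimum count 10, total 15) held 99.967% of counts. They were fitted with edgeR 4.0.16 in R 4.3.3 (TMM, robust, glmQLFit and glmQLFTest, 2-sided, Benjamini-Hochberg, threshold 0.05). The procedure was also run on simulated counts with the same dispersion for all genes, which does not cover the wider spread of Hoxc12 or Hoxd12. SE was the log2 fold change over the square root of F, and CPM used TMM factors. An exact permutation test of 3 against 3 cannot go below p = 0.1.

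Alternatives were DESeq2 1.42.0, limma-voom (limma 3.58.1), other scalings, filters and dispersions, a replicate block and leaving out each library. Deviations of same-numbered libraries from their group means correlated at 0.194, 0.144 and 0.276 over 15471 genes, and those of different numbers at -0.330 to 0.182. By a rule that every same-number value exceed 0.1, the numbers were taken to pair the libraries. WT replicate 1 with Sd replicate 2, at 0.182, also exceeded 0.1 and lay above the same-number value of 0.144. The rule therefore does not show that the numbers pair the libraries, and the labels do not say what a number stands for.

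Members and lists were chosen with earlier results of these data known. All listed Hox genes are named, and from each background list the up to 4 genes with the smallest p. Genes outside that rule (Meox1, Pax3, Meis1, T, Msgn1, Cdx2, Hoxaas3, Shh, Ihh, Foxa2, Krt8, Ripply1 and Sox3) were named after their values were seen. 1 Hox gene is not reported here.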

Additional observations from a re-analysis of the deposited data

How the results depend on the processing

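No Hox gene passed the threshold in any alternative run; a filter of at least 1 CPM in 3 libraries left 35 members, without Hoxc12. Over all genes, 9 were called by edgeR, 34 by DESeq2, 3 by limma-voom, 14 without a filter, 3 without the robust option, and 2 to 6 with 1 library left out. With the replicate block 12 were called, 24 Hox genes were negative and the member with the smallest adjusted p was Hoxd11 at 0.116 (edgeR). The block changed no call among the Hox members. Negative members numbered 20 to 25 under other tests, scalings and filters and 14 to 29 with 1 library left out, and their median ran from -0.13 to 0.04. Members without overlap numbered 1 to 12 with 1 library left out. Without WT replicate 3, 8 were lower in Sd/Sd and 4 higher (8.68% and 6.68% of all genes); without Sd replicate 3, 2 lower and 5 higher (10.7% and 10.4%); without Sd replicate 1, 4 lower and 0 higher (7.91% and 7.67%); and without Sd replicate 2, 2 lower and 0 higher (11.6% and 10.97%). For paralogs 10 to 13, 9 to 11 were negative and the median ran from -0.45 to -0.14. The summed ratio ran from -0.11 to 0.04 (log2) and Hoxc10 per kb from 103 to 111.

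Signs turned for single members, mostly at values near 0; Hoxc12, at -1.42 with all libraries, was an exception. Hoxa7 was 0.0012 with DESeq2, 0.0011 with DESeq2 size factors and 4.2e-04 without a filter; Hoxa9 was -0.021 with limma-voom, -0.0092 by library size alone and -0.018 with the replicate block. Hoxd8 was -0.022 with limma-voom and -0.011 with the block, and Hoxd9 -0.0092, -0.0053 by library size and -0.0026 with the block. By library size alone Hoxb2 was -0.0050 and Hoxd3 -0.0054. With 1 library left out, the log2 fold change ran from -0.16 to 0.069 for Hoxa3, -0.23 to 0.046 for Hoxa4, -0.11 to 0.14 for Hoxa7, -0.20 to 0.18 for Hoxa9, -0.26 to 0.10 for Hoxa13, -0.18 to 0.077 for Hoxb1, -0.064 to 0.091 for Hoxb2, -0.0045 to 0.22 for Hoxb3, -0.13 to 0.16 for Hoxc4, -0.15 to 0.24 for Hoxc5, -0.025 to 0.36 for Hoxc8, -0.0048 to 0.15 for Hoxc9, -0.36 to 0.017 for Hoxc10, -2.83 to 0.41 for Hoxc12, -0.24 to 0.16 for Hoxd1, -0.061 to 0.095 for Hoxd3, -0.21 to 0.24 for Hoxd8 and -0.12 to 0.18 for Hoxd9. The cause was not tested. Groups of 3 limit every interval, and Hoxc12 and Hoxb13 are also limited by counts.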
